A study of Homo sapiens with 12 samples.

Results

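The miR-15 and miR-16 family with miR-195 was followed through small RNA libraries of AC16 cells and of exosomes isolated from them. AC16 is an established human line derived in part from ventricular heart tissue. The 7 miRNAs were chosen by name, not by value, from 2656 names listed in all: hsa-miR-16-5p, hsa-miR-15b-5p, hsa-miR-15a-5p, hsa-miR-195-5p, hsa-miR-497-5p, hsa-miR-15b-3p and hsa-miR-16-2-3p, written below without the species prefix. Each of the 7 was listed in all 12 libraries. The stated aim concerned exosome miRNAs of enlarged heart muscle cells, and there were 4 groups of 3 libraries: exosomes Ang, exosomes Con, cells Ang and cells Con. The agent is given only as Ang in the labels and AngII in the file headers, with no dose or time, and Con is not described further. All groups share the one cell line, and the sources used here leave unsaid whether replicates came from different cultures. A p-value below therefore speaks only of how these libraries vary, which may be technical.

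A miRNA is cut from a hairpin precursor that can give one product from its 5′ arm and one from its 3′ arm. The product loaded into Argonaute, the guide, pairs with messenger RNAs mainly through its seed, bases 2 to 8. Guides of the miR-15 and miR-16 family share one seed and repress cell cycle and survival genes such as those of cyclin D1, cyclin E1 and BCL2. In mouse hearts miR-195 and its relatives are known for restraining cardiomyocyte division after birth, and forced miR-195 expression there enlarges the heart. miR-16-5p is also abundant in red blood cells and blood plasma.

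The sequences are shown because the 5 guides are alike at the 5′ end and differ towards the 3′ end, and the exosome values below differ between them. RefSeq (GRCh38.p14) held mature sequences of all 7 names. They are written 5′ to 3′ with the seed in capitals.
miR-16-5p: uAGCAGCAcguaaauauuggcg
miR-195-5p: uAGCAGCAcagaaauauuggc
miR-15a-5p: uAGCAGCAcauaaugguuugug
miR-15b-5p: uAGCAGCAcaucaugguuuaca
miR-497-5p: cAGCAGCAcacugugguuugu
miR-15b-3p: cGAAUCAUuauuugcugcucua
miR-16-2-3p: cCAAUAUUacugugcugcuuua

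The first 5 sequences share the seed AGCAGCA, and both 3′-arm products have other seeds. RefSeq holds 7 human miRNA names with that seed, which also include miR-424-5p and miR-6838-5p. Counted from the 5′ end of miR-16-5p, miR-195-5p differs from it at 2 of 21 bases (G10A and U11G). miR-15a-5p differs from miR-15b-5p at 4 of 22 (C12A, A20G, C21U and A22G in the direction from miR-15b-5p). miR-497-5p differs from miR-15a-5p at 4 of 21 bases and from miR-16-5p at 10 of 21. By their 3′ parts the guides fall into a pair with the letters AAUAUUGG, miR-16-5p and miR-195-5p, and a trio with GGUUU, miR-15a-5p, miR-15b-5p and miR-497-5p. Among 1524 human mature miRNAs of 21 or 22 bases, AAUAUUGG occurs in 0.328% and GGUUU in 2.43%. These letters were picked after the values were seen. The letters GGAG and GGCU, described as bound by the exosome-sorting proteins hnRNPA2B1 (in human T cells) and SYNCRIP (in mouse hepatocytes), occur in 12.1% and 11.1% of those miRNAs and in 0 of the 7 members, searched on the strand as written.

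The hairpins lie in pairs. MIR15B (chromosome 3, 160404588 to 160404685, plus strand, GRCh38) and MIR16-2 (160404745 to 160404825) are 59 bases apart in an intron of SMC4, which encodes a condensin subunit. MIR15A (chromosome 13, 50049119 to 50049201, minus strand) and MIR16-1 (50048973 to 50049061) are 57 bases apart in an intron of the noncoding RNA gene DLEU2. MIR497 (chromosome 17, 7017911 to 7018022, minus strand) and MIR195 (7017615 to 7017701) are 209 bases apart in the noncoding host gene MIR497HG, exonic in 1 of its 2 annotated transcripts and intronic in the other. MIR16-1 and MIR16-2 give the same miR-16-5p, so its counts cannot be assigned to a chromosome. The 3′ arms differ, and miR-16-2-3p comes from chromosome 3 alone. The hairpins of the chromosome 3 pair are shown because 4 of the 7 members come from them, with both mature products in capitals.
MIR15B: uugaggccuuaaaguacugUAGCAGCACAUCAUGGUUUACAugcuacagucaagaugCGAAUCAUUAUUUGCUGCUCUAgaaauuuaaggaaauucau
MIR16-2: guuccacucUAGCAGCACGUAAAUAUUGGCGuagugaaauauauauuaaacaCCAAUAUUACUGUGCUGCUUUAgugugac

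Exosome libraries held 697049 to 1029883 unique molecular identifiers (UMIs, tags that count each captured molecule once) and cell libraries 413513 to 528844. Levels are given as CPM, the count scaled to a common library total, and 3 counts, the limit that a count of 0 allows, came to 2.91 to 4.30 CPM in exosome and 5.67 to 7.25 CPM in cell libraries, for counting error only. A pair of libraries stood apart from their replicates. A chi-square of the counts, divided by its degrees of freedom, was 8.04 and 13.05 between exosomes Con replicate 1 and the other replicates of its group, which differed from each other by 2.16. It was 4.996 and 5.44 for cells Ang replicate 2, against 2.25 between the others. For exosomes Ang replicate 2 it was 3.93 and 3.20, against 2.18 between the others, but that library was not counted in the pair. Of 7 muscle miRNAs (miR-1, miR-133a, miR-133b, miR-206, miR-208a, miR-208b and miR-499a) every one had a count in each cell library, but they summed to no more than 376 CPM there, of which miR-208a-3p, a heart-specific one, held 152 to 252 CPM and miR-208b-3p 53.2 to 92.7 CPM. miR-1-3p and miR-133a-3p, abundant in mature heart muscle, reached no more than 17.0 and 27.3 CPM. In such bulk libraries, fewer cells with a miRNA and less of it per cell cannot be told apart.

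miR-16-5p led the family in every library. It stood at 3239, 5572 and 3356 CPM in exosomes Ang and at 2694, 9752 and 11811 CPM in exosomes Con. Cells Ang had 34195, 46618 and 35740 CPM and cells Con 35642, 31918 and 32322 CPM. The groups of exosomes overlapped because exosomes Con replicate 1 was below all 3 Ang libraries. In both cell groups miR-16-5p was the second most abundant name. By mean it ranked 41 in exosomes Ang and 22 in exosomes Con.

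miR-15b-5p, the second guide in every library, stood at 139, 156 and 134 CPM in exosomes Ang and at 96.1, 182 and 155 CPM in exosomes Con. Its mean was 3212 ± 203 CPM in cells Ang and 3086 ± 166 CPM in cells Con (SD, n = 3 each). miR-15a-5p had 18.7, 11.5 and 11.7 CPM in exosomes Ang and 4.85, 12.4 and 18.5 CPM in exosomes Con. It averaged 758 ± 42.8 CPM in cells Ang and 783 ± 27.7 CPM in cells Con. Both miR-15 guides overlapped between Ang and Con in exosomes and in cells.

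The products of the chromosome 17 pair were rare. miR-195-5p had 2, 1 and 1 counts in exosomes Ang and 1, 14 and 8 counts in exosomes Con. Cells Ang held 10, 20 and 17 counts of it and cells Con 23, 17 and 18 counts. Only exosomes Con replicates 2 and 3 reached more than 2 counts among the exosome libraries. miR-497-5p had 3, 0 and 0 counts in exosomes Ang and 1, 1 and 0 counts in exosomes Con. The zeros allow up to 3.13 and 2.93 CPM in exosomes Ang replicates 2 and 3 and 3.09 CPM in exosomes Con replicate 3. In cells Ang miR-497-5p averaged 32.8 ± 5.26 CPM and in cells Con 24.0 ± 1.74 CPM.

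Of the 3′-arm products, miR-15b-3p, which leaves the miR-15b hairpin opposite the guide, had 7.17, 16.7 and 10.8 CPM in exosomes Ang and 4.85, 15.8 and 18.5 CPM in exosomes Con. It had 302, 307 and 458 CPM in cells Ang and 363, 312 and 321 CPM in cells Con. miR-16-2-3p had 1, 7 and 8 counts in exosomes Ang and 3, 17 and 13 counts in exosomes Con. Cells Ang held 24, 34 and 36 counts of it and cells Con 29, 33 and 26 counts. Both products overlapped between Ang and Con in exosomes and in cells. The opposite arms that were not among the 7 names, miR-15a-3p, miR-16-1-3p, miR-195-3p and miR-497-3p, had at most 8 counts in any library. None of these 4 was abundant enough for a test.

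**Figure D1:**
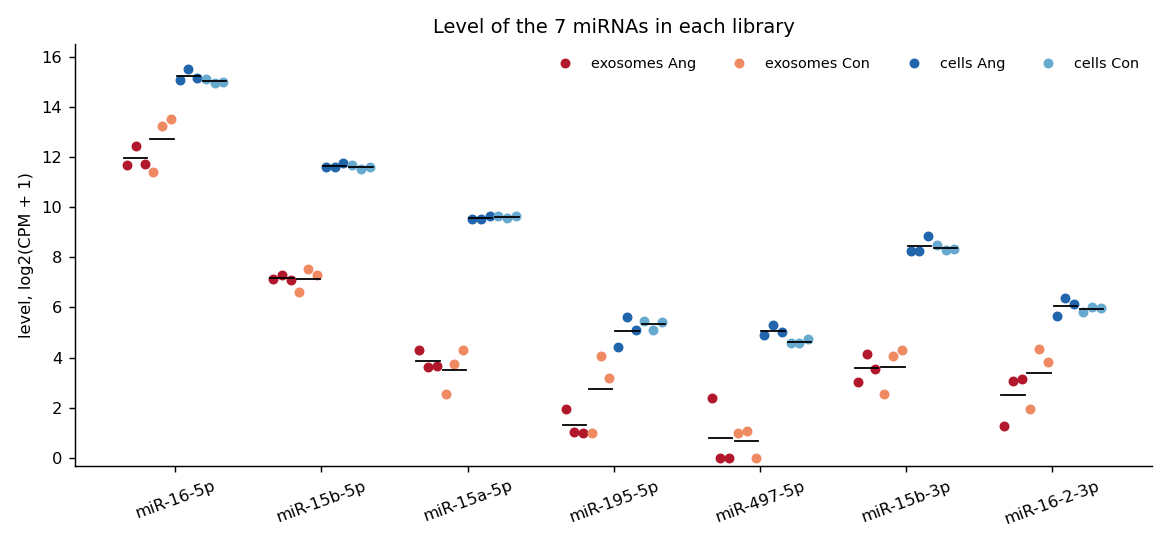
Level of the 7 miRNAs in each library, as log2(CPM + 1), with 1 point per library, grouped by colour into exosomes Ang, exosomes Con, cells Ang and cells Con, and a black line at the mean of the plotted values. miR-16-5p is highest in every group, and the exosome points of miR-15b-5p, miR-15a-5p and miR-15b-3p lie far below their cell points.

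The order of the levels differed between compartments. In cells Con it ran miR-16-5p, miR-15b-5p, miR-15a-5p, miR-15b-3p, miR-16-2-3p, miR-195-5p and miR-497-5p, and no neighbours overlapped. In cells Ang the order was the same, but miR-195-5p (20.4 to 48.4 CPM) and miR-497-5p (28.5 to 38.7 CPM) overlapped. In exosomes of both groups miR-16-5p and then miR-15b-5p stood clear of the rest. Below them, miR-15b-3p (4.85 to 18.5 CPM), miR-15a-5p (4.85 to 18.5), miR-16-2-3p (2.91 to 19.1) and miR-195-5p (0.971 to 15.8) overlapped in exosomes Con. In exosomes Ang, miR-15a-5p (11.5 to 18.7 CPM) overlapped miR-15b-3p (7.17 to 16.7), which overlapped miR-16-2-3p (1.43 to 7.82). UMIs count molecules, so the lengths of 21 and 22 bases do not weight these levels, but names can differ in how well they are captured.

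The family's guides took 0.422% ± 0.132 of all UMIs in exosomes Ang and 0.825% ± 0.483 in exosomes Con, and 4.29% ± 0.669 in cells Ang and 3.72% ± 0.221 in cells Con (SD, n = 3 each). Of those UMIs, miR-16-5p made up 96.0% ± 0.974 in exosomes Ang and 97.6% ± 1.12 in exosomes Con. In cells Ang it made up 90.4% ± 1.62 and in cells Con 89.4% ± 0.344. The share of miR-15a-5p was 0.361% ± 0.175 in exosomes Ang and 0.151% ± 0.0249 in exosomes Con, and 1.80% ± 0.293 in cells Ang and 2.11% ± 0.0836 in cells Con. Every exosome library thus gave miR-16-5p a larger share of the family than any cell library did.

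Exosomes were compared with cells to ask which members are relatively abundant in exosomes. Of the 4 members that could also be tested among exosome libraries alone, all were lower in exosomes than in cells under Ang, least for miR-16-5p (2.58-fold) and most for miR-15a-5p. In Con the miR-15 guides and miR-15b-3p were lower in exosomes, whereas miR-16-5p did not pass. For these tests miR-16-5p and miR-15b-5p were abundant enough in exosome libraries as well. miR-15a-5p and miR-15b-3p entered them only through their cell counts, as did the other 3 members, miR-195-5p, miR-497-5p and miR-16-2-3p. A pass of any of these is therefore no support for a difference, and their values are given as a description. Fold changes here and below are on the TMM scale, which sets libraries level on the bulk of their names, and the adjusted p is from edgeR's quasi-likelihood test over all tested names. The compartments were also extracted with different kits, so the kit's effect and the compartment's cannot be told apart.

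In Ang, miR-16-5p and miR-15b-5p passed as lower in exosomes, where 83.3% of 1627 tested names passed, 38.2% higher and 45.1% lower. In Con, miR-15b-5p passed as lower and miR-16-5p did not, where 83.3% of 1710 names passed, 39.2% higher and 44.2% lower. miR-15a-5p and miR-15b-3p also passed as lower in both, which is a description only. The median log2 difference over all names tested was -0.31 in Ang and -0.27 in Con. With library totals in place of TMM the median over all names moved to -2.21 in Ang and -1.79 in Con. On that scale 294 names were higher and 1176 lower in Ang (621 and 734 by TMM), and 346 and 1156 in Con (670 and 755 by TMM). miR-16-5p passed as lower in Con too with library totals, at -2.05, so a difference near the median of all names depends on the scale. In CPM every exosome library lay below every cell library for each of the 7 members, as it did for 64.2% of the 1765 names tested in either comparison.

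As a description, miR-15a-5p had the lowest exosome level relative to cells among the 4 members that could also be tested in exosome libraries alone. Its log2 difference was -3.91 in Ang (SE 0.187, edgeR adjusted p = 2.95e-12, n = 3 per group) and -4.53 in Con (SE 0.239, adjusted p = 1.81e-08). miR-15b-3p had -3.01 in Ang (SE 0.261) and -3.17 in Con (SE 0.260). miR-15b-5p had -2.60 in Ang (SE 0.0994, adjusted p = 1.38e-13) and -2.91 in Con (SE 0.176, adjusted p = 5.79e-08).

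miR-16-5p had a log2 difference of -1.37 in Ang (SE 0.161, adjusted p = 5.78e-07) and of -0.53 in Con (SE 0.385, adjusted p = 0.221). Without exosomes Con replicate 3 the Con value passed, at -0.98 (adjusted p = 0.0236), and it was -0.11 without exosomes Con replicate 1. The Con values of miR-16-2-3p and miR-195-5p were also nearer 0 without that library, at -0.38 and -0.22. miR-16-2-3p had -1.57 in Ang (SE 0.373, adjusted p = 0.000959) and -0.87 in Con (SE 0.402, adjusted p = 0.0665), and it passed in Con with RLE size factors (adjusted p = 0.0465), with limma-voom (adjusted p = 0.0401), without exosomes Con replicate 2 and without replicate 3. miR-195-5p had -2.51 in Ang (SE 0.583, adjusted p = 0.000796) and -0.79 in Con (SE 0.504, adjusted p = 0.169), where it passed without exosomes Con replicate 2, at -1.64. Since miR-16-2-3p and miR-195-5p entered only through their cell counts, these passes of theirs are no support for a difference. For miR-195-5p, 4 counts in exosomes Ang against 47 in cells Ang gave a level 6.001 times as high in cells (95% interval 2.19 to 22.9).

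miR-497-5p passed in both, which is no support since it too entered only through its cell counts, and its values rest on few molecules. With 3 counts in exosomes Ang against 46 in cells Ang, its level was 7.83 times as high in cells (95% interval 2.52 to 39.4). With 2 counts in exosomes Con against 35 in cells Con it was 12.04 times as high in cells (95% interval 3.09 to 103). These exact intervals are from summed counts and cover counting error only. All 3 counts in exosomes Ang came from replicate 1, and both other libraries of that group were at 0. The intervals cover the folds of miR-15a-5p, so these data give no order between miR-497-5p and miR-15a-5p.

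**Figure D2:**
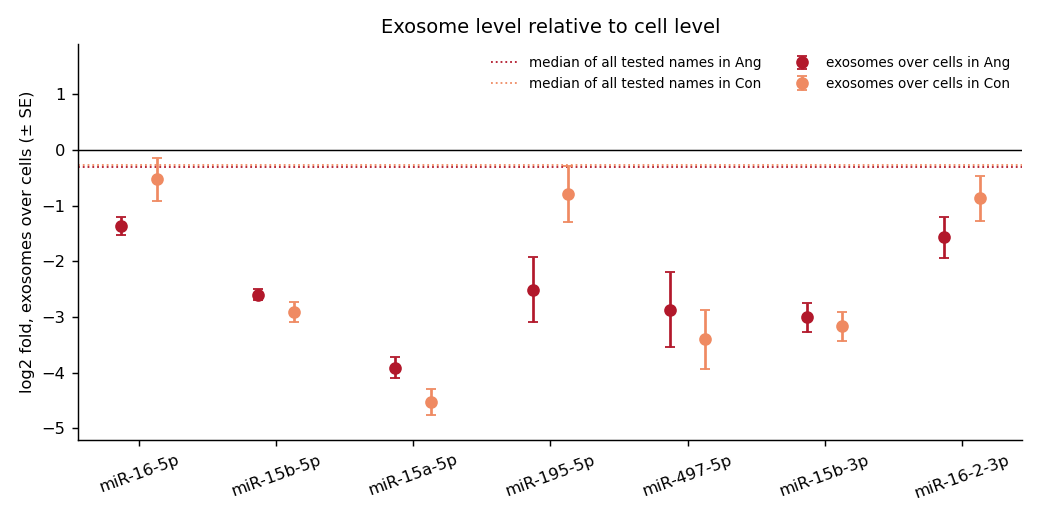
Log2 fold of exosomes over cells for the 7 miRNAs on the TMM scale, in Ang (left point) and Con (right point), with bars of 1 SE and dotted lines at the medians of all tested names, -0.31 in Ang and -0.27 in Con. The points of miR-15a-5p are the lowest plotted, with miR-497-5p resting on 3 and 2 exosome counts, and in Con miR-16-5p, miR-195-5p and miR-16-2-3p lie nearest the medians.

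Ratios of 2 members within a library do not depend on any scaling between libraries. There were 167 to 754 molecules of miR-16-5p for each of miR-15a-5p in exosome libraries, and 40.6 to 62.9 in cell libraries. The mean log2 ratio of miR-15a-5p to miR-16-5p was -8.12 ± 0.736 in exosomes Ang and -9.27 ± 0.289 in exosomes Con, and -5.66 ± 0.272 in cells Ang and -5.41 ± 0.0627 in cells Con (SD, n = 3 each). It was 8.92-fold lower in exosomes, by an exact two-sided permutation test within Ang and within Con (p = 0.005, the smallest that 400 arrangements allow, adjusted p = 0.0117 over 7 ratios). The ratio of miR-15b-5p to miR-16-5p was 3.20-fold lower and that of miR-15b-3p 4.21-fold lower, each with the same p by the exact test and lower in 6 of 6 exosome libraries than in any cell library. miR-16-5p and the miR-15 products therefore differed in their exosome level relative to cells. Such a lower ratio is not particular to the family. Of the names tested, 33.6% in Ang and 46.1% in Con had a lower log2 difference between exosomes and cells than miR-16-5p. The share of all names whose ratio to miR-16-5p separates fully was not counted.

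The other 4 ratios did not pass. miR-16-2-3p over miR-16-5p was 1.29-fold lower in exosomes (exact permutation p = 0.265, adjusted p = 0.265). miR-195-5p over miR-16-5p was 1.52-fold lower (exact p = 0.15, adjusted p = 0.175). miR-497-5p over miR-16-5p was 3.85-fold lower (exact p = 0.065, adjusted p = 0.114), and passed without exosomes Con replicate 1 (adjusted p = 0.035) or exosomes Ang replicate 1 (adjusted p = 0.00875). However, exosomes Ang replicates 2 and 3 and exosomes Con replicate 3 held 0 counts of miR-497-5p. Their ratios are set only by the constant added to each count and by miR-16-5p. Without exosomes Ang replicate 1 this holds for every Ang exosome library left. These passes of miR-497-5p are therefore no support for a difference. miR-15b-3p over miR-15b-5p, the 2 arms of 1 hairpin, was 1.32-fold lower (exact p = 0.105, adjusted p = 0.147), and passed without exosomes Con replicate 3 (adjusted p = 0.0263). The ratio of miR-16-2-3p passed without exosomes Ang replicate 3 (adjusted p = 0.0438). These p-values, all from exact permutation tests, do not show that the ratios were alike, since the ratio of miR-195-5p to miR-16-5p spread over 1.01 (SD, log2) in exosomes Ang and 0.841 in exosomes Con.

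**Figure D3:**
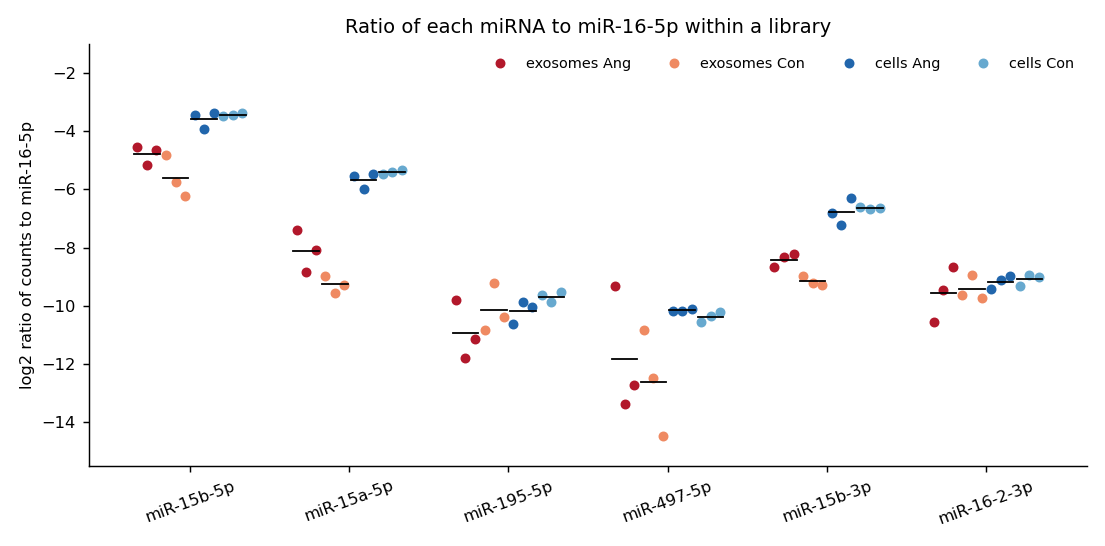
Log2 ratio of the counts of each miRNA to those of miR-16-5p in the same library (0.5 added to each count), with 1 point per library and a black line at the group mean. For miR-15b-5p, miR-15a-5p and miR-15b-3p all exosome points lie below all cell points, while those of miR-16-2-3p overlap.

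Ang was compared with Con in exosomes, the comparison nearest to the stated aim. None of the 4 members abundant enough for a test (miR-16-5p, miR-15b-5p, miR-15a-5p and miR-15b-3p) passed, where 34.0% of 1199 names passed, 16.9% higher and 17.1% lower. miR-16-5p averaged 4056 ± 1314 CPM in exosomes Ang and 8086 ± 4782 CPM in exosomes Con (SD, n = 3 each), a log2 difference of -0.81 (SE 0.413, edgeR adjusted p = 0.166). No member had an unadjusted p below 0.05 in edgeR, and DESeq2 and limma-voom called 0 as well. Over all names 203 were higher and 205 lower, or 151 and 319 with library totals, where the median of all names was -0.22 in place of -0.05 (log2).

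The call for miR-16-5p depended on 1 library. Without exosomes Con replicate 1, the library that stood apart, miR-16-5p was lower in exosomes Ang with a log2 difference of -1.21 (SE 0.159, edgeR adjusted p = 3.50e-05), and it was the only member called. It did not pass without any of the other 5 libraries in turn, and without exosomes Con replicate 3 its log2 difference was -0.46. miR-15b-5p had a log2 difference of 0.16 (SE 0.193, adjusted p = 0.590), miR-15a-5p of 0.35 (SE 0.420, adjusted p = 0.580) and miR-15b-3p of 0.06 (SE 0.451, adjusted p = 0.943), and all 3 were below 0 without that library, at -0.043, -0.016 and -0.33. Of the ratios within a library, that of miR-15a-5p to miR-16-5p was 2.23-fold higher in exosomes Ang and that of miR-15b-3p 1.68-fold higher, with no overlap between Ang and Con. In each case an exact permutation test, two-sided, gave p = 0.1, which groups of 3 cannot go below (adjusted p = 0.35 over 7 ratios). Both ratios share miR-16-5p as denominator, and only 7.17% of the names tested had a lower log2 difference than miR-16-5p. How many other names show no overlap in this ratio was not counted.

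**Figure D4:**
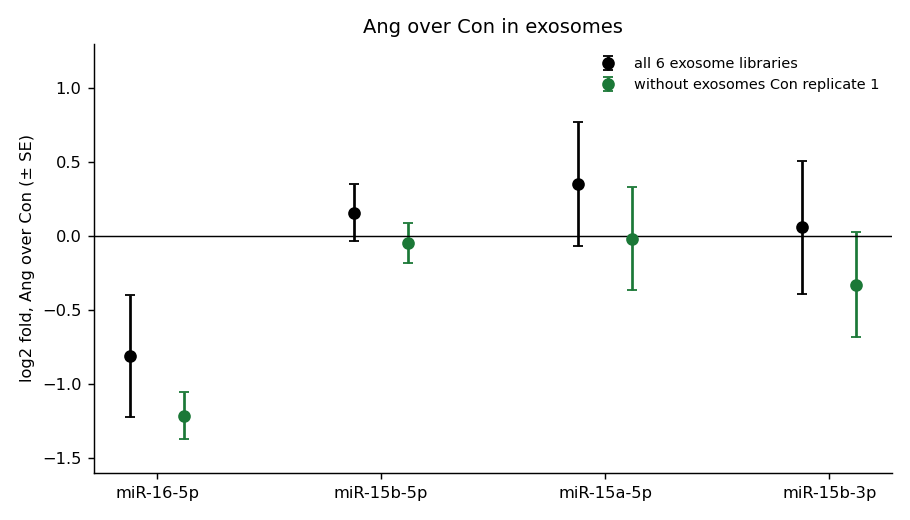
Log2 fold of Ang over Con in exosomes for the 4 members that could be tested, with all 6 libraries (black) and without exosomes Con replicate 1 (green), with bars of 1 SE. The miR-16-5p value is -1.21 with a narrower SE without that library and -0.81 with it, while the other 3 stay within 1 SE of 0 without it.

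Among exosome libraries, summed markers of blood cells and of endothelium and liver were highest in exosomes Con replicates 2 and 3, as miR-16-5p was. The other exosome libraries did not keep that order. Exosomes Con replicate 1 had the lowest miR-16-5p, but both its sums were above those of exosomes Ang replicates 1 and 3. The red cell miRNA miR-451a had 0, 22 and 7 counts in exosomes Ang and 10, 82 and 124 counts in exosomes Con. Cells Ang held 5, 90 and 2 counts of it and cells Con 4, 3 and 3 counts. The 8 blood cell miRNAs (miR-451a, miR-486-5p, both arms of miR-144 and miR-142, miR-223-3p and miR-150-5p) summed to 346, 644 and 478 CPM in exosomes Ang and to 552, 1194 and 1279 CPM in exosomes Con. Between 4 and 8 of them had a count in each exosome library, and miR-451a was at 0 only in exosomes Ang replicate 1. Not all of them followed miR-16-5p. miR-144-3p had 0, 1 and 0 counts in exosomes Ang and 1, 0 and 0 in exosomes Con, and miR-144-5p had 0, 1 and 2 and 1, 0 and 0. miR-150-5p had 19.4, 19.1 and 25.7 CPM in exosomes Con. The largest part of the sum was miR-223-3p, with 320, 387 and 343 CPM in exosomes Ang and 385, 609 and 632 CPM in exosomes Con. The 4 endothelium and liver miRNAs (both arms of miR-126, miR-122-5p and miR-885-5p), all with counts in every exosome library, summed to 118, 292 and 138 CPM in exosomes Ang and to 160, 581 and 648 CPM in exosomes Con. The liver miRNA miR-885-5p went against that sum, with 28.7, 40.7 and 30.3 CPM in exosomes Ang and 21.4, 23.6 and 18.5 CPM in exosomes Con (log2 difference 0.82, edgeR adjusted p = 0.014). Within exosomes Con, replicate 1 was lowest for both sums and for every member but miR-497-5p. In exosomes Ang, replicate 2 was highest for both sums and for miR-16-5p. The part of these markers in the miR-16-5p values was not tested.

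In the cells, where all 8 blood cell miRNAs had counts in every library, replicate 2 of Ang was the one with high markers. Its blood cell sum was 6960 CPM, against 2073 and 2190 in the other Ang libraries and 2158 to 2393 in cells Con. Its endothelium and liver sum was 4878 CPM, against 548 and 550 in the other Ang libraries and 599 to 696 in cells Con. The same library had the highest miR-16-5p, miR-195-5p, miR-497-5p and miR-16-2-3p levels of all cell libraries, at 46618, 48.4, 38.7 and 82.2 CPM. Its miR-15b-5p, miR-15a-5p and miR-15b-3p levels, 3081, 740 and 307 CPM, lay within the range of the other cell libraries. The part of the markers was not tested here either.

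**Figure D5:**
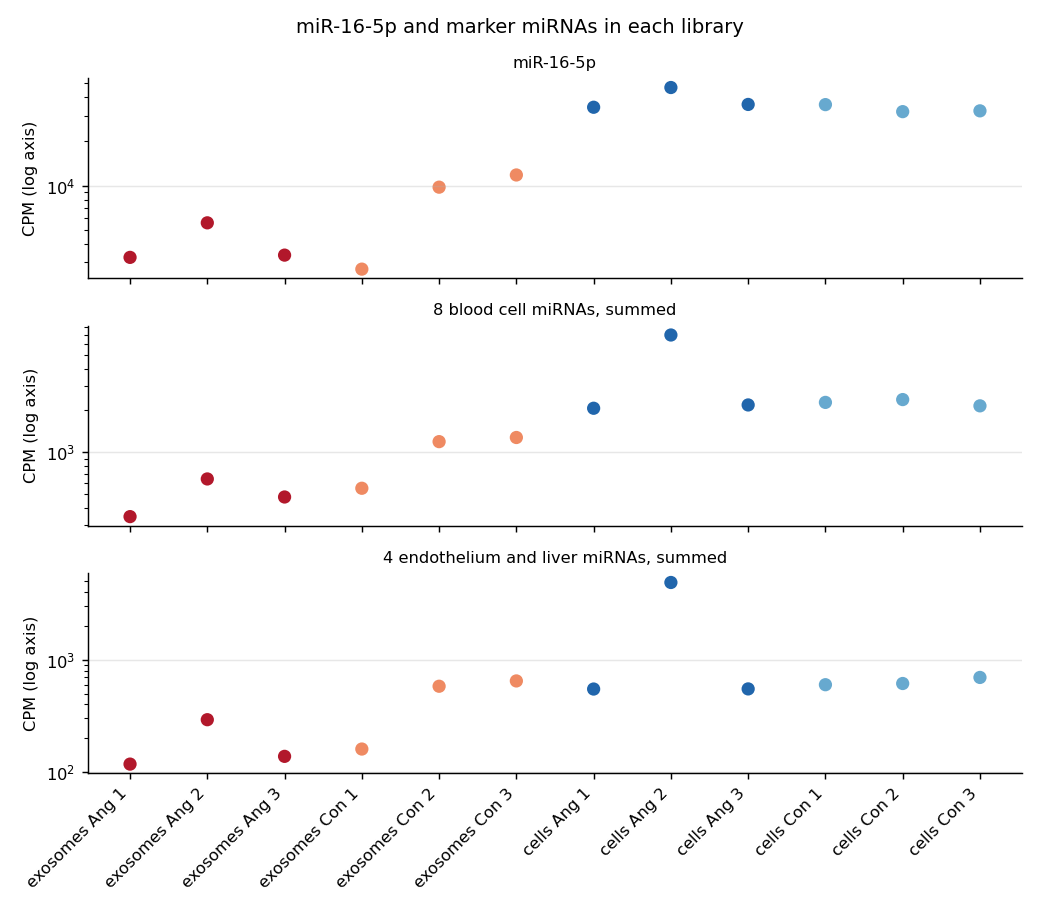
CPM on log axes of miR-16-5p (top), of 8 blood cell miRNAs summed (middle) and of 4 endothelium and liver miRNAs summed (bottom) in each of the 12 libraries. Exosomes Con replicates 2 and 3 and cells Ang replicate 2 are the high libraries of their compartment in all 3 panels.

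In cells 7 of 7 members were tested for Ang against Con and 0 passed, where 6.56% of 1630 names passed, 2.76% higher and 3.80% lower. miR-16-5p averaged 38851 ± 6771 CPM in cells Ang and 33294 ± 2043 CPM in cells Con, with a log2 difference of 0.21 (SE 0.0988, edgeR adjusted p = 0.257). It was the only member with an unadjusted p below 0.05 in edgeR, and DESeq2 and limma-voom called 0 members. Without cells Ang replicate 2 its log2 difference was 0.05. The miR-15 guides had differences of 0.04 (miR-15b-5p, SE 0.0708) and -0.06 (miR-15a-5p, SE 0.0859). Of the 7 members these lay closest to 0. miR-497-5p had 0.43 (SE 0.290, adjusted p = 0.496), and its 3 Ang libraries, at 28.5, 38.7 and 31.2 CPM, lay above its Con libraries, at 22.7, 23.3 and 25.9 CPM, as for 12.5% of the names tested. miR-195-5p had -0.26 (SE 0.307), miR-15b-3p 0.09 (SE 0.147) and miR-16-2-3p 0.13 (SE 0.216), and the groups of all 3 overlapped. None of the 7 ratios between members passed in cells (exact permutation p of 0.1 to 1, adjusted p of 0.467 to 1).

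The Ang change in exosomes was then set against that in cells by the interaction in all 12 libraries. None of the 7 members passed, where 15.1% of 1835 names passed, 9.97% higher and 5.18% lower. Over all names 183 were higher and 95 lower, or 250 and 77 with RLE size factors and 93 and 222 with library totals, with medians of 0.05 by TMM, 0.16 by RLE and -0.26 by library totals (log2). miR-16-5p had an interaction of -0.90 on the log2 scale (SE 0.471, edgeR adjusted p = 0.255), miR-195-5p of -1.78 (SE 0.980, adjusted p = 0.285) and miR-15a-5p of 0.56 (SE 0.373, adjusted p = 0.389). No member had an unadjusted p below 0.05, and DESeq2 and limma-voom called 0. Without exosomes Con replicate 1, miR-16-5p passed at -1.35 (adjusted p = 0.000247) and miR-195-5p at -2.38 (adjusted p = 0.0373). miR-195-5p entered this test only through its cell counts, so its pass is no support for a difference. With cells Ang replicate 2 also left out, miR-16-5p passed at -1.17 (adjusted p = 3.17e-05) and was the only member called.

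The wider miR-15 and miR-107 group, whose members carry the letters AGCAGC near the 5′ end, was listed from general knowledge as miR-424-5p, miR-503-5p, miR-103a-3p, miR-103b, miR-107, miR-646 and miR-6838-5p. miR-103b does not carry those letters there, since it is read from the strand opposite miR-103a-3p. In exosomes against cells, 4 relatives could also be tested among exosome libraries alone. Of these miR-103a-3p, miR-107 and miR-503-5p were lower and miR-6838-5p was higher, in Ang and in Con alike. Of all names 45.1% were lower and 38.2% higher in Ang, and 44.2% and 39.2% in Con. The relatives miR-424-5p, miR-103b and miR-646 entered these tests only through their cell counts, so that a pass of theirs is no support for a difference. Over all 7 relatives the median log2 difference was -2.72 in Ang and -2.95 in Con, as a description. The abundant miR-103a-3p averaged 156 ± 35.8 CPM in exosomes Ang and 4384 ± 167 CPM in cells Ang, 7.59-fold lower on the TMM scale, and in Con it was 7.77-fold lower. miR-107 is nearly identical to miR-103a-3p, and how reads were shared between them is not given in the sources used here. The exception was miR-6838-5p.
miR-6838-5p: aAGCAGCAguggcaagacuccu
miR-424-5p: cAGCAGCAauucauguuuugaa
Both have the seed of the family, in capitals, and they stood at opposite ends of these 7 relatives on the TMM scale. miR-6838-5p was 3.08-fold higher in exosomes Ang than in cells Ang (edgeR adjusted p = 3.83e-05) and 2.93-fold higher in exosomes Con than in cells Con (adjusted p = 0.000281), from 20 to 32 counts per exosome library and 8 to 22 per cell library. In CPM its groups overlapped (31.6, 23.0 and 31.3 in exosomes Ang and 20.4, 38.7 and 42.9 in cells Ang), and with library totals it did not pass, at -0.27 in Ang and 0.039 in Con on the log2 scale. miR-424-5p was 12.1-fold lower in exosomes Ang than in cells Ang and 33.5-fold lower in exosomes Con than in cells Con, as a description. It passed with library totals too, which is no support for the same reason, its entry through cell counts alone. Some names with this seed could also be tested in exosome libraries alone. Their Con values ran from 23.1-fold lower in exosomes (miR-15a-5p) to 2.93-fold higher on the TMM scale. The miR-15a-5p value is a description, since that name entered the test between compartments only through its cell counts.

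For Ang against Con none of these relatives passed, 0 of 4 tested in exosomes, where 34.0% of all names passed, and 0 of 7 in cells, where 6.56% did, with no unadjusted p below 0.05 in edgeR. The interaction called miR-424-5p alone, 1 of 7, against the 9.97% of all names that were higher. miR-424-5p entered this test too only through its cell counts, so the call is no support for a difference. It had 7, 12 and 8 counts in exosomes Ang and 2, 6 and 5 counts in exosomes Con. It averaged 456 ± 63.5 CPM in cells Ang and 440 ± 67.1 CPM in cells Con. The call was lost without any one of 8 of the 12 libraries, exosomes Con replicate 1 among them.

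The names most like miR-16-5p across the 12 libraries were found by the root mean square difference in log2(CPM + 1) after each name's mean was subtracted. Over 1819 names with a mean of at least 10 CPM the closest were miR-92a-3p (0.254), let-7b-5p (0.271), miR-425-5p (0.318), miR-191-5p (0.320) and miR-146a-5p (0.350), where the median name differed by 1.08. Of the family, miR-16-2-3p stood in position 17, miR-195-5p in position 123 and miR-15b-5p in position 732. miR-15b-3p, miR-497-5p and miR-15a-5p followed in positions 891, 1035 and 1403. The order differed within compartments. Over the exosome libraries alone miR-15b-3p was nearest (position 21), followed by miR-16-2-3p (111), miR-15b-5p (159), miR-195-5p (392), miR-15a-5p (467) and miR-497-5p (1798). Over the cell libraries alone miR-497-5p was nearest (70), followed by miR-16-2-3p (179), miR-15b-5p (209), miR-15a-5p (321), miR-15b-3p (848) and miR-195-5p (1184). Over the 6 exosome libraries alone the closest names were miR-3192-5p, let-7b-5p, miR-19a-3p, miR-423-5p and miR-185-5p, and over the 6 cell libraries let-7i-5p, miR-30d-5p, let-7f-5p, let-7b-5p and miR-518e-3p. let-7b-5p was the one name in all 3 sets. This likeness is a description over libraries that share their totals and their groups.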

How the data were processed

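Each deposited value is a raw count of UMIs for 1 mature miRNA, as the file headers say, with no normalization by the authors. Per the labels' protocols, RNA of cells was taken with a miRNeasy Micro kit and RNA of exosomes with an exoRNeasy Maxi kit, and a QIAseq miRNA kit served for the libraries. The submitters' processing notes name cutadapt and GRCh38. As the aligner, mismatches allowed and counting program are unstated here, reads of near-identical members could have been split between names. Cell files list 2656 names and exosome files 2580. The 76 others, at most 20 counts in a cell library, were taken as 0.

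Comparisons of 2 groups used their own 6 libraries, and the interaction all 12, in edgeR 4.0.16 with R 4.3.3 (filterByExpr, TMM, quasi-likelihood, two-sided, Benjamini-Hochberg over all tested names, threshold 0.05). The SE is the log2 fold over the root of the F statistic. CPM uses library totals. Ratios used counts plus 0.5 and exact permutation tests. The fit was tested on simulated data. Alternatives were RLE, library totals, DESeq2 1.42.0, limma-voom 3.58.1, other filters, a replicate block, all libraries in one fit and each library left out. Members, relatives, arms and marker lists (muscle, blood cells, endothelium and liver) came from general knowledge, all chosen with earlier results of these data known. All members were to be named, with the 5 names most like miR-16-5p. Sequences are RefSeq's and host genes GENCODE release 29's.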

Additional observations from a re-analysis of the deposited data

Results flagged for a closer look

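Among the members and their relatives, 1 result differed between compartments by the interaction test. For miR-424-5p the Ang over Con difference in exosomes exceeded that in cells by 1.41 on the log2 scale (SE 0.446, edgeR adjusted p = 0.0405). It rests on 27 counts in exosomes Ang and 13 in exosomes Con, and the name entered the test only through its cell counts. Over its alternatives the adjusted p lay between 0.0217 (DESeq2) and 0.286 (without both libraries that stood apart).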

How the results depend on the processing

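Counts of all names passing stayed within 1.5 times under every setting run, apart from Ang against Con in cells, where 45 names were higher and 62 lower and leaving out 1 library gave 38 to 97 in all (38 without cells Con replicate 2 or 3, 70 without cells Ang replicate 1). The replicate numbers showed no clear pairing of the libraries. Same-numbered libraries of 2 groups had correlations of deviations of -0.0533 to 0.120, and differently numbered ones of -0.138 to 0.0887. The highest, 0.120, was between exosomes Ang replicate 2 and cells Ang replicate 2. Such values cannot settle whether libraries shared a culture. With the replicate block 398 names passed for Ang against Con in exosomes, 132 in cells and 252 for the interaction. Between compartments 1345 passed in Ang and 1398 in Con. The block changed no member's call, and miR-424-5p missed the threshold for the interaction (edgeR adjusted p = 0.056). Of 814 single values recomputed for members, their ratios and 3 relatives, 743 kept direction and call, 18 newly passed, 13 no longer passed and 40 changed sign. The 13 are 12 settings of the miR-424-5p interaction and miR-6838-5p with library totals in Con, and no value that changed sign passed.

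With library totals 7 members were lower in exosomes Con than in cells Con (4 by TMM and 4 to 6 with 1 library left out), counting the 3 rare ones. Leaving out 1 library gave 0 to 1 members lower for Ang in exosomes and 0 to 2 for the interaction, counting the rare miR-195-5p. Without both libraries that stood apart, an alternative chosen after seeing the data, 1 member was lower in each. That setting turned the Ang difference in exosomes to -0.016 for miR-15a-5p, -0.043 for miR-15b-5p and -0.33 for miR-15b-3p, in cells to -0.025 for miR-16-2-3p, and the interaction to -0.40 for miR-15b-3p and -0.010 for miR-15b-5p. In exosomes miR-15b-3p was also at -0.10 with library totals, -0.0046 without a filter and -0.031 with the block, and miR-15b-5p at -0.013 with library totals. In cells miR-15b-5p was at -0.012 in one fit of all libraries. The interaction was -0.21 for miR-15b-3p and -0.068 for miR-15b-5p with library totals and -0.096 for miR-497-5p with limma-voom. With library totals miR-6838-5p was at -0.27 between compartments in Ang. The cause of these was not tested.

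With 1 library left out, differences in exosomes ran from -0.016 to 0.82 for miR-15a-5p, -0.33 to 0.39 for miR-15b-3p and -0.043 to 0.36 for miR-15b-5p. In cells they ran from -0.010 to 0.083 for miR-15b-5p, -0.57 to 0.0086 for miR-195-5p, -0.025 to 0.32 for miR-16-2-3p and -0.14 to 0.20 for miR-15b-3p. The interaction ran from -0.34 to 0.46 for miR-15b-3p, -0.0062 to 0.41 for miR-15b-5p and -3.35 to 1.10 for miR-497-5p. For exosomes against cells in Ang, miR-497-5p ran from -6.66 to -2.18, lowest without exosomes Ang replicate 1, where the exosome libraries left are at 0 and the fitted value is no bound. Log2 ratios to miR-16-5p for Ang ran in exosomes from -0.45 to 1.67 (miR-497-5p) and -0.58 to 0.37 (miR-16-2-3p), and in cells from -0.19 to 0.043 (miR-16-2-3p), -0.26 to 0.014 (miR-15b-5p) and -0.38 to 0.094 (miR-15b-3p). That of miR-15b-3p to miR-15b-5p ran from -0.38 to 0.20 in exosomes and -0.13 to 0.10 in cells. Of ratios for exosomes against cells, 3 to 4 of 7 passed. Depth limits miR-195-5p, miR-497-5p and miR-16-2-3p in exosomes, where some libraries held 0 or 1 counts.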
